A study of Mus musculus with 8 samples.

Results

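Glycolysis splits glucose to pyruvate in the cytosol, and pyruvate is then burned in mitochondria or turned into lactate and exported. Its flux is set at glucose entry, at hexokinase, at phosphofructokinase and at pyruvate kinase, and several of these steps have isoforms that differ between liver parenchyma and other cells. Hypoxia-inducible factor 1 (HIF-1) is a transcription factor made of an oxygen-labile alpha subunit and the stable partner Arnt. Prolyl hydroxylases of the Egln family mark the alpha subunit for destruction when oxygen is present, and HIF-1 induces most glycolytic enzymes, lactate export, glycogen synthesis and angiogenic genes. Macrophages are known to raise glycolysis and HIF-1 activity on inflammatory activation.

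A set of 38 genes of glycolysis, lactate and pyruvate fate, glycogen and the HIF-1 response was followed in RNA-seq libraries labelled control or tranilast. The genes were chosen by symbol from these pathways, with earlier results of the same comparison known, so their differences are given as a description. No p-value is printed for them, and the calls made below from adjusted p-values only sort them. The symbols matched 39 rows of the 22063 genes in the deposited table, because Aldoa is listed under 2 Ensembl identifiers, and 37 of these rows were among the 10770 genes that passed the expression filter. Ldhb (1 to 10 counts per library) and Pygl, the liver glycogen phosphorylase (0 to 6 counts), did not pass it.

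The study asked how tranilast, an orally active anti-allergic compound, acts on the liver in diet-induced steatohepatitis. There were 4 libraries titled Control and 4 titled Control+tranilast, called control and tranilast here, all labelled as wild-type liver. The methods describe male C57BL/6J mice, 6 to 8 weeks old at the start, fed a high-fat, high-cholesterol diet for 16 weeks, with tranilast at 25 or 50 mg/kg per day or its vehicle, sodium carboxymethyl cellulose, by gavage during the last 8 weeks. The methods also describe a control group on standard chow, with tranilast or vehicle. The series design names the high-fat, high-cholesterol diet for both groups of libraries. The paper also states that the livers sequenced came from mice on this diet given tranilast. The titles, however, say Control, so whether the sequenced animals were fed that diet or chow cannot be told from the labels. The labels name neither the diet, nor the dose that the sequenced animals received, nor a batch, and beyond a replicate number nothing in them ties a library to its own animal, so the p-values measure the spread between these libraries only.

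The estimated counts summed to 14585143 to 15618789 per control library and 12053036 to 14679384 per tranilast library. Levels are given below as CPM, counts scaled to library size by the trimmed mean of M values (TMM). A count of 0 allows up to 3 counts, or 0.192 to 0.249 CPM (counting error only). A gene was called when its p-value from the quasi-likelihood test of edgeR was under 0.05 after Benjamini-Hochberg adjustment over the 10770 genes. Of these, 28.2% were called higher and 28.8% lower with tranilast, and the median log2 fold change was 0.01 (quartiles -0.19 and 0.23). With library size alone in place of TMM, 70.9% of the called genes were higher instead of 49.5%, with upper-quartile factors 62.6%, and with the deposited FPKM values 70.5%. The median of all genes then lay up to 0.12 higher on the log2 scale. The median of the genes followed here lay 0.45 to 0.53 below that of all genes under every scaling and filter. A change of scaling factor shifts all genes nearly alike, so this gap could hardly move with it and is no check of the scaling.

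The tissue label was compared with marker genes. The 9 hepatocyte markers together held at most 0.00013% of the counts in a control library and 0.000191% in a tranilast library, with Cps1, Tat and Hnf4a at 0 in all 8 libraries. The 14 macrophage markers held 1.05% to 1.10% of each control library and 1.03% to 1.09% of each tranilast library. Lyz2, the macrophage lysozyme, had 51267 to 68975 counts. In the same list Mrc1 and Mertk did not exceed 3 counts, and C1qa, C1qb and C1qc did not exceed 11, 6 and 8 counts. The resident Kupffer cell markers Clec4f, Vsig4 and Timd4 were at 0, and Cd5l did not exceed 8 counts. The markers of endothelial cells, stellate cells, cholangiocytes, lymphocytes, neutrophils, erythroid cells and adipocytes reached at most 10 counts each. Of the 9 macrophage markers tested, 3 were called higher and 6 lower, from -1.42 for Fcgr1 to 0.21 for Adgre1 on the log2 scale, and the part of this in the values below was not tested. In bulk libraries, fewer cells of a type and less RNA per cell cannot be told apart. With hepatocyte markers near 0 and several macrophage markers abundant, the counts do not bear out the label of whole liver. The origin of the RNA was not tested.

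Several liver isoforms of the pathway were at or near 0. Pkm, the pyruvate kinase of most tissues, took all of the pyruvate kinase FPKM, and the liver enzyme Pklr was at 0 in every library. The liver isoforms of glucose-6-phosphatase (G6pc), fructose bisphosphatase (Fbp1), the glucose transporter (Slc2a2) and glycogen synthase (Gys2) stood at 3 counts or fewer in all 8 libraries. By contrast, Pfkl, the liver form of phosphofructokinase, held 61.6% ± 0.975 of its family's FPKM in the control group (SD, n = 4). Aldoa held 97.2% ± 0.149 of the aldolase FPKM in the control group (SD, n = 4), and Ldha held at least 99.9% of the lactate dehydrogenase FPKM in each library.

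Of the 37 rows tested, 29 were called lower with tranilast, against the 28.8% of all genes, and 2 were called higher (Pfkm and Pfkfb2), against 28.2%. The other 6 were Hk3, the second Aldoa identifier, Aldoc, Pfkfb4, Eno2 and P4ha2. In 29 rows all tranilast libraries were below all control libraries, which held for 25.2% of all genes. The median log2 fold change was -0.49, within a range of -2.25 to 0.48. Most of these genes are abundant, and among genes with a mean of at least 100 CPM 59.2% were called lower, against 20 of 20 here. At the fold threshold of the study, a log2 fold change of 1.5 or more in size, Adm alone qualified, while 1.11% of all genes did. The set took 2.68% to 2.78% of the counts in the control libraries and 2.07% to 2.09% in the tranilast libraries, with no overlap. Since the set was proposed on this contrast, these counts describe it and support nothing. Nearest to the threshold were Pfkm just inside (log2 fold change 0.21 ± 0.0783) and Hk3 just outside (0.09 ± 0.0432), each with the standard error of the fit.

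**Figure D1:**
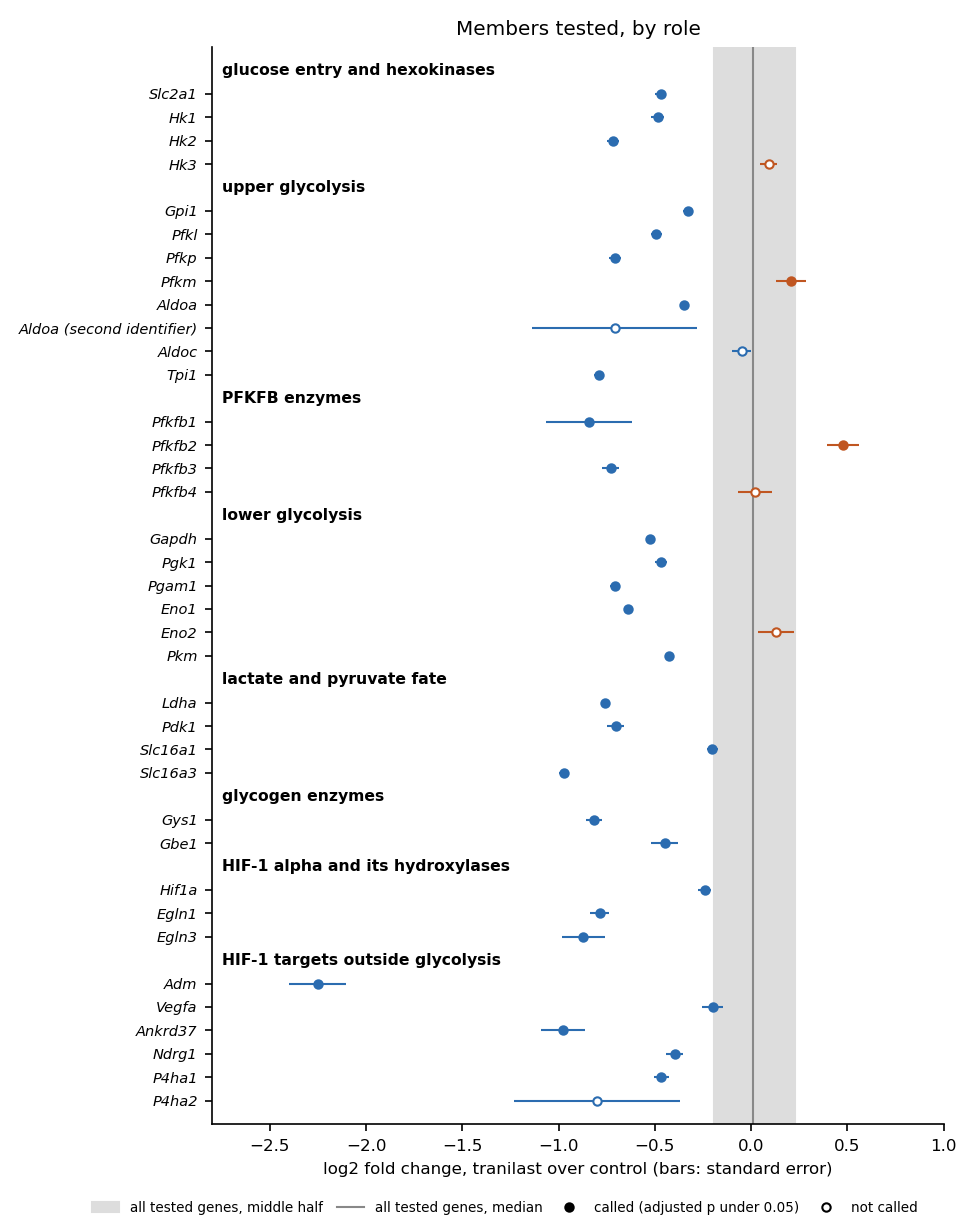
Log2 fold change of tranilast over control for the 37 tested rows, grouped by role, with bars for the standard error of the edgeR fit (4 against 4 libraries); filled points were called, open points were not, the grey band spans the quartiles of all tested genes (-0.19 to 0.23) and the line marks their median. Most points lie left of the band, Adm is farthest at -2.25, and Pfkm and Pfkfb2 are the filled points to the right.

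Glucose entry and phosphorylation came first in the pathway. Slc2a1 (ENSMUSG00000028645, GRCm38 chromosome 4, 119108711 to 119137983) encodes GLUT1, the basal glucose transporter. It stood at 408, 429, 408 and 409 CPM in control replicates 1 to 4 and at 296, 298, 300.2 and 299 CPM in tranilast replicates 1 to 4. The groups did not overlap, the tranilast libraries were within a few CPM of each other, and the log2 fold change was -0.47 ± 0.0271 (SE). Hk2 (ENSMUSG00000000628, chromosome 6, 82725025 to 82774454), the inducible hexokinase bound to mitochondria, stood at 302, 302, 302 and 289 CPM in the control libraries and at 184, 176, 189 and 179 CPM in the tranilast libraries. It fell by 39.2%, with every tranilast library far under the lowest control. Hk1, the housekeeping hexokinase, had a log2 fold change of -0.49 ± 0.0324, from 280.3 ± 3.66 to 200.1 ± 7.72 CPM (SD, n = 4). Hk3, the myeloid hexokinase, was at 77.5 ± 3.56 CPM in the control group and 82.6 ± 1.70 CPM in the tranilast group and was not called, although it was called higher with upper-quartile factors, with library size alone and in both FPKM fits.

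The hexokinase family was therefore composed differently in the 2 groups. On the FPKM scale, which is per length of transcript, Hk2 made up 36.2% ± 0.44 of the family in the control group and 30.3% ± 1.06 in the tranilast group (SD, n = 4), while Hk3 made up 17.2% ± 0.534 and 24.0% ± 0.427. The libraries of the groups did not overlap in either share. The share of Hk1 was 46.5% ± 0.456 and 45.6% ± 0.781.

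The steps from glucose phosphate to the triose phosphates followed. The phosphofructokinases, which commit sugar to glycolysis, moved apart. Pfkp (ENSMUSG00000021196, chromosome 13, 6579768 to 6648777), the platelet form, stood at 317, 319.8, 338 and 324 CPM in control replicates 1 to 4 and at 193, 195, 200.0 and 207 CPM in tranilast replicates 1 to 4. The gap between the groups was several times the spread within either, at a log2 fold change of -0.71 ± 0.0325. Pfkl, the liver form, had -0.49 ± 0.0273. Pfkm, the muscle form and the least abundant, was called higher, at 18.3 ± 0.927 CPM against 21.1 ± 1.33 CPM (SD, n = 4), although 7 of 18 alternative settings did not call it. On the FPKM scale Pfkm went from 2.32% ± 0.279 to 3.81% ± 0.445 of the family and Pfkp from 36.1% ± 0.867 to 31.6% ± 1.65 (SD, n = 4).

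Aldoa (ENSMUSG00000030695, chromosome 7, 126795234 to 126800751), the aldolase of muscle and most other tissues, stood at 2174, 2216, 2277 and 2248 CPM in the control libraries and at 1758, 1737, 1794 and 1711 CPM in the tranilast libraries. It was lower in all 4 tranilast libraries but by less than most of the pathway, at a log2 fold change of -0.35 ± 0.0212. The second identifier, ENSMUSG00000114515, which lies next to it on the same strand, was below 1 CPM in the mean of each group and was not called. Aldoc, the brain aldolase, was at 91.7 ± 5.12 and 88.6 ± 4.82 CPM and was not called, and its sign turned under other scalings. Tpi1 (ENSMUSG00000023456, chromosome 6, 124810586 to 124814296) encodes triose phosphate isomerase, which interconverts the aldolase products. Its values were 1101, 1167, 1184 and 1152 CPM in the control libraries and 657, 677, 677 and 653 CPM in the tranilast libraries. With -0.79 ± 0.0257 it had the lowest log2 fold change of the steps from glucose entry to pyruvate kinase. Of the 18 rows of these steps tested, 13 were called lower, against 28.8% of all genes. Gpi1, which converts glucose phosphate to fructose phosphate, had -0.33 ± 0.0248.

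**Figure D2:**
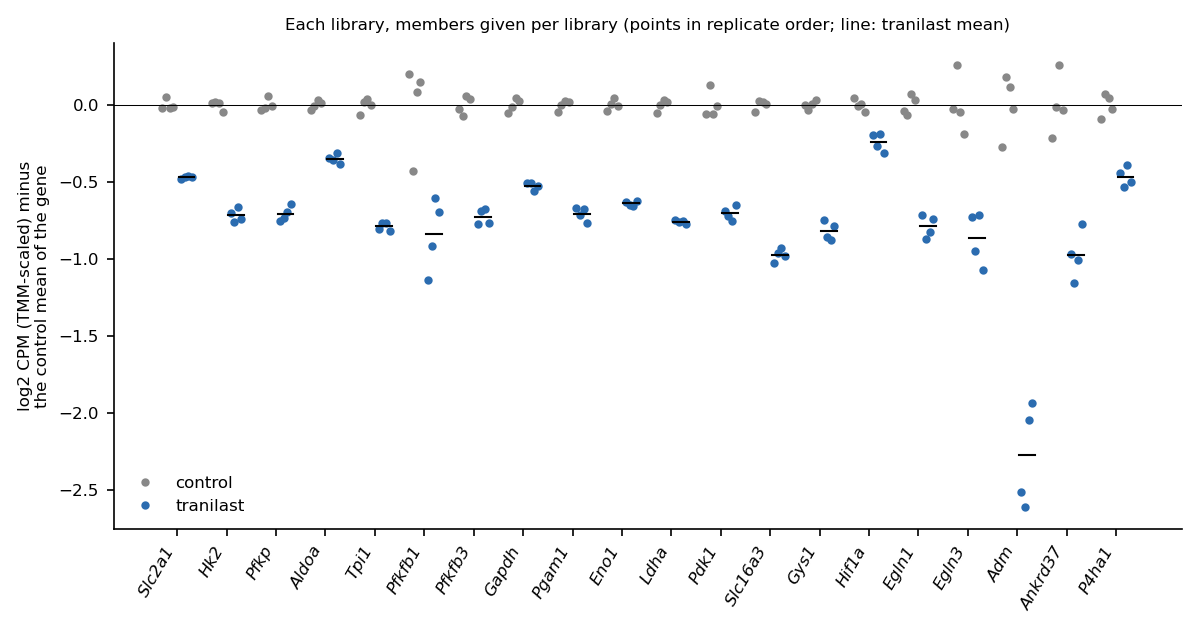
Log2 CPM of each library minus the gene's control mean for the 20 genes given library by library, in replicate order (grey, control; blue, tranilast; line, tranilast mean; n = 4 per group). In all 20 genes the blue points lie below the grey ones, and the spread is widest in the low-count genes Pfkfb1, Egln3, Adm and Ankrd37.

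The PFKFB enzymes make and break the allosteric activator of phosphofructokinase and so set the pace of the pathway. They went in opposite directions. Pfkfb3 (ENSMUSG00000026773, chromosome 2, 11471433 to 11554077), the inducible isoform with the strongest kinase activity, stood at 97.7, 94.6, 104 and 102 CPM in control replicates 1 to 4 and at 58.2, 61.7, 62.1 and 58.3 CPM in tranilast replicates 1 to 4. The groups were well apart, at a log2 fold change of -0.73 ± 0.0445. Pfkfb1, the liver isoform, was low throughout, at 3.77, 2.43, 3.48 and 3.63 CPM against 1.49, 1.74, 2.16 and 2.02 CPM. Control replicate 2 came close to the tranilast libraries. The counts were 21 to 53 per library, and the standard error was wide (-0.84 ± 0.224). Pfkfb2, known from heart, was the member with the highest log2 fold change, 0.48 ± 0.0835. It stood at 15.9, 17.6, 16.8 and 18.1 CPM in the control libraries and at 21.8, 26.7, 22.4 and 24.5 CPM in the tranilast libraries, without overlap. Pfkfb4 was at 19.9 ± 2.26 and 20.2 ± 1.40 CPM (SD, n = 4) and was not called.

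Pfkfb3 held 62.4% ± 1.92 of the family's FPKM in the control group and 46.6% ± 1.82 in the tranilast group (SD, n = 4), while Pfkfb2 held 14.5% to 17.0% in the control libraries and 24.8% to 31.7% in the tranilast libraries. The sum over the 4 isoforms went from 37.2 ± 2.03 to 31.0 ± 1.21 FPKM. In the control group Pfkfb3 was thus the main isoform by a wide margin, and in the tranilast group it was still first with under 50% of the family in every library.

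**Figure D3:**
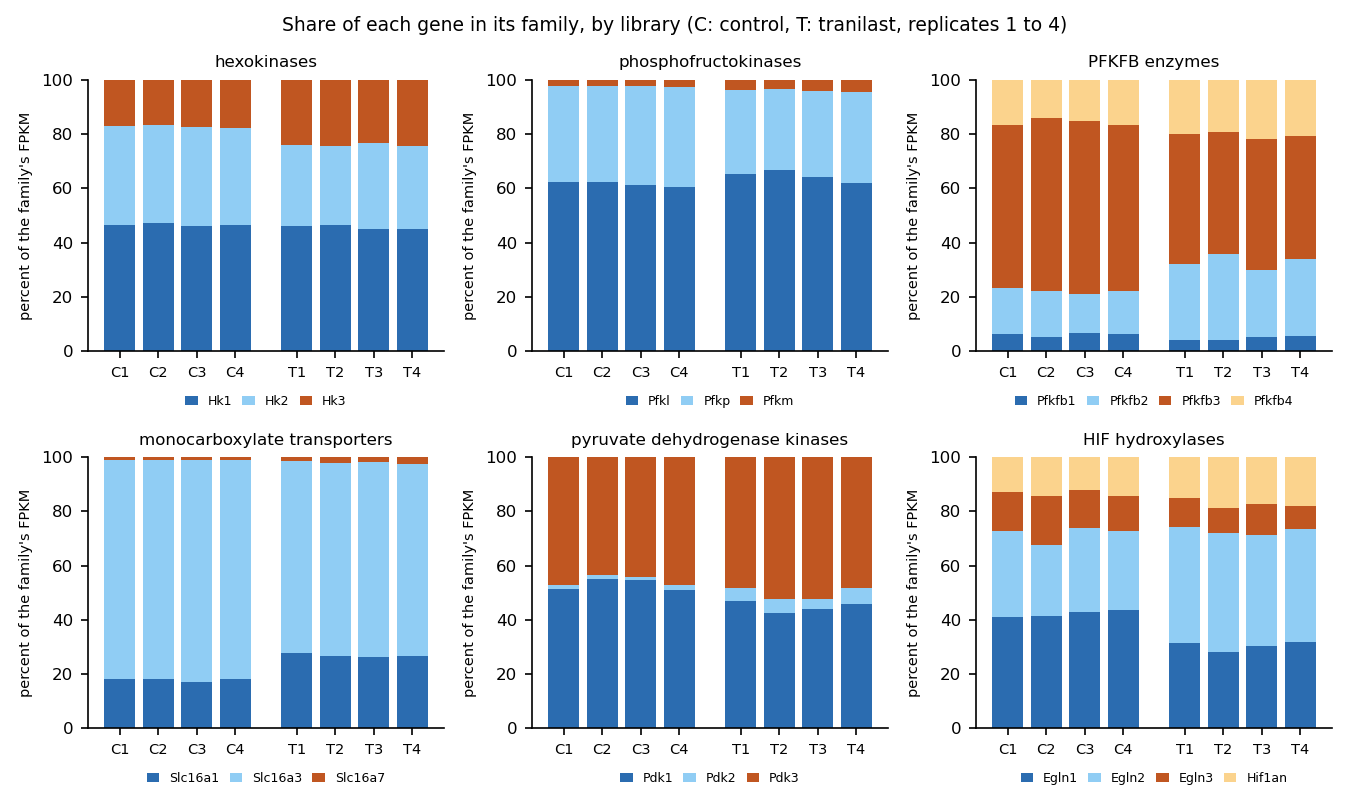
Percent of the family's FPKM held by each isoform in each library for 6 families (C1 to C4, control; T1 to T4, tranilast). The bands shift at the boundary between the groups: Pfkfb3 narrows from a mean of 62.4% to 46.6%, Hk3 widens from 17.2% to 24.0% and Slc16a1 widens from 18.0% to 26.9%. These are shares of falling sums: the mean went from 144 to 113 FPKM for hexokinases and from 487 to 307 FPKM for monocarboxylate transporters. Hk3 itself was not called, and Slc16a1 was called lower.

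The enzymes from glyceraldehyde phosphate to pyruvate held the most abundant transcripts of the set. Gapdh (ENSMUSG00000057666, chromosome 6, 125161715 to 125166467), which oxidises glyceraldehyde phosphate and is often used as a reference gene, had the highest control level per length, 3334 ± 95.2 FPKM (SD, n = 4). It stood at 4735, 4873, 5063 and 5006 CPM in control replicates 1 to 4 and at 3458, 3460.1, 3344 and 3415 CPM in tranilast replicates 1 to 4. Its level fell by 30.5%, with no tranilast library near the control range. Pgam1 (ENSMUSG00000011752, chromosome 19, 41911923 to 41918660), the phosphoglycerate mutase, stood at 1509, 1557, 1590.3 and 1581 CPM and at 980.1, 949, 977 and 916 CPM. The highest tranilast library was far under the lowest control library, a log2 fold change of -0.71 ± 0.0253.

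Eno1 (ENSMUSG00000063524, chromosome 4, 150236721 to 150248879), the ubiquitous enolase, stood at 1222, 1264, 1296 and 1253 CPM in the control libraries and at 813, 802, 798 and 818 CPM in the tranilast libraries. The groups did not overlap, but its counts were not whole in any library, and its reads can be shared with the near-identical copy Eno1b. Summed over both genes, the level was 3751 ± 48.7 CPM in the control group and 2456 ± 23.0 CPM in the tranilast group (SD, n = 4), a log2 ratio of the means of -0.61. Eno1 took 33.6% ± 0.426 of that sum in the control group and 32.9% ± 0.541 in the tranilast group. Pfkp, Gapdh and Gys1 had no whole count in any library either, and Slc16a3 had one in 3 of 8 libraries (whole within 1e-09), so their levels also depend on how shared reads were divided.

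Pkm went from 7656 ± 110.5 to 5701 ± 61.7 CPM (SD, n = 4) and had the largest share of counts of the set, with a log2 fold change of -0.43 ± 0.0161. Pgk1, the first enzyme of the pathway to yield ATP, had -0.47 ± 0.0309. Eno2, the neuronal enolase, was at 19.2 ± 1.28 and 20.9 ± 2.59 CPM and was not called, although it was called higher with library size alone and in both FPKM fits. Its FPKM was 8.15 ± 1.65 and 11.5 ± 1.20, a wider gap than in CPM, and the transcript length implied by count and FPKM was 1887 to 2633 bases in the control libraries and 1720 to 2198 bases in the tranilast libraries. The implied length, a measure added after the data were seen, differed by less than 0.1 on the log2 scale in the other 32 of 33 members measured and in 92.3% of 9415 genes.

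Pyruvate can become lactate, leave the cell or enter mitochondria. Ldha (ENSMUSG00000063229, chromosome 7, 46841475 to 46855627), which makes lactate, stood at 2551, 2639.8, 2699 and 2674 CPM in control replicates 1 to 4 and at 1573, 1559, 1563 and 1545 CPM in tranilast replicates 1 to 4. The tranilast libraries spanned less than 30 CPM, and the level fell by 40.9%. Slc16a3 (ENSMUSG00000025161, chromosome 11, 120948480 to 120960868) encodes MCT4, the lactate exporter of glycolytic cells. Its values were 601, 633, 629 and 624 CPM in the control libraries and 306, 319.8, 327 and 315 CPM in the tranilast libraries. It fell by 49.0%, the most of any member above 100 CPM (log2 fold change -0.97 ± 0.0282). Slc16a1, or MCT1, which carries lactate in both directions, had -0.20 ± 0.0296 (404 ± 13.6 against 351 ± 6.83 CPM) and was not called on the FPKM scale. Its share of the monocarboxylate transporter FPKM was 18.0% ± 0.538 in the control group and 26.9% ± 0.514 in the tranilast group (SD, n = 4).

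Pdk1 (ENSMUSG00000006494, chromosome 2, 71873224 to 71903858) encodes a kinase that shuts the pyruvate dehydrogenase complex and so holds back the burning of pyruvate in mitochondria. It stood at 124, 141, 123 and 128 CPM against 79.8, 77.9, 76.4 and 82.0 CPM, without overlap, a log2 fold change of -0.70 ± 0.0462. It held 53.1% ± 2.13 of the kinase FPKM in the control group and 44.9% ± 1.94 in the tranilast group (SD, n = 4).

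Of the glycogen genes of the set, Gys1 and Gbe1 could be tested, and both were called lower. Gys1 (ENSMUSG00000003865, chromosome 7, 45434844 to 45456619), the glycogen synthase outside the liver, stood at 117, 115, 117 and 119.7 CPM in control replicates 1 to 4 and at 69.7, 64.6, 63.7 and 67.9 CPM in tranilast replicates 1 to 4. The groups were well apart, and the level fell by 43.2%. Gbe1, the branching enzyme, had a log2 fold change of -0.45 ± 0.0712, from 49.2 ± 4.59 to 36.1 ± 3.25 CPM (SD, n = 4).

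Hif1a, Egln1 and Egln3 were lower in all tranilast libraries. Hif1a (ENSMUSG00000021109, chromosome 12, 73901375 to 73947530) stood at 226, 219, 221 and 213 CPM in the control libraries and at 192, 182, 192 and 177 CPM in the tranilast libraries. The groups did not overlap (log2 fold change -0.24 ± 0.035). Transcript levels say nothing of the protein, whose amount is set mainly by degradation. Egln1 (ENSMUSG00000031987, chromosome 8, 124908587 to 124949324), the main oxygen sensor and itself a HIF-1 target, stood at 78.9, 77.3, 85.0 and 82.9 CPM against 49.3, 44.4, 45.8 and 48.4 CPM. Egln3 (ENSMUSG00000035105, chromosome 12, 54178981 to 54203860), a hypoxia-inducible hydroxylase, stood at 20.5, 24.9, 20.2 and 18.3 CPM against 12.6, 10.8, 12.7 and 9.92 CPM. Both were without overlap, at -0.79 ± 0.0495 and -0.87 ± 0.11. On the FPKM scale, Egln1 went from 42.2% ± 1.30 to 30.4% ± 1.73 of the 4 HIF hydroxylases, and Egln2, which is not hypoxia-inducible, from 29.6% ± 2.58 to 42.3% ± 1.33 (SD, n = 4).

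Among HIF-1 targets outside glycolysis, Adm (ENSMUSG00000030790, chromosome 7, 110627661 to 110629820), which encodes the vasodilator adrenomedullin, stood out. It was at 16.1, 22.0, 21.1 and 19.1 CPM in control replicates 1 to 4 and at 3.41, 3.18, 4.71 and 5.09 CPM in tranilast replicates 1 to 4, from 226 to 317 counts and 44 to 78 counts. It fell by 79.0%, and the highest tranilast library was far below the lowest control library. Ankrd37 (ENSMUSG00000050914, chromosome 8, 45996902 to 46005707), an ankyrin repeat protein gene used as a hypoxia marker, was at 16.4, 18.9, 22.9 and 18.6 CPM and at 9.73, 8.54, 9.50 and 11.2 CPM (log2 fold change -0.98 ± 0.113). P4ha1 (ENSMUSG00000019916, chromosome 10, 59323296 to 59373304), a collagen prolyl hydroxylase subunit, was at 259.7, 291, 285 and 272 CPM and at 204, 191, 211 and 195 CPM. Neither overlapped between the groups.

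Among the remaining targets, Ndrg1, a stress-responsive gene, had a log2 fold change of -0.40 ± 0.0437 (176 ± 12.4 against 133 ± 2.87 CPM, SD, n = 4). Vegfa, the angiogenic growth factor, had -0.20 ± 0.0531 and was not called with library size alone or on the FPKM scale. Over all alternatives its log2 fold change lay between -0.25 and -0.06. P4ha2 had 2 to 42 counts per library, a log2 fold change of -0.80 ± 0.432, and was not called.

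The windows before the transcription start of the 5 called members with the lowest log2 fold changes and a control mean of at least 10 CPM are shown because HIF-1 binds a short core there. Each runs from 250 bases before to 50 bases after the start, on GRCm38.p6, with sequence from RefSeq, 5′ to 3′ on the gene's strand. The core searched was ACGTG or GCGTG on either strand (CACGT or CACGC as read), and capitals mark it.
Adm, chr7:110627407-110627706, plus strand: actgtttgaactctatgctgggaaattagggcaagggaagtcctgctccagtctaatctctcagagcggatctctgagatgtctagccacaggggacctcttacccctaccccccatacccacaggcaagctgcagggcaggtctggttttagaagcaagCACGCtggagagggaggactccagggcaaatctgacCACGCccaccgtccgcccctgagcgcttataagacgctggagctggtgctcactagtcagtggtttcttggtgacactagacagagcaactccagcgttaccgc
Ankrd37, chr8:45999801-46000100, minus strand: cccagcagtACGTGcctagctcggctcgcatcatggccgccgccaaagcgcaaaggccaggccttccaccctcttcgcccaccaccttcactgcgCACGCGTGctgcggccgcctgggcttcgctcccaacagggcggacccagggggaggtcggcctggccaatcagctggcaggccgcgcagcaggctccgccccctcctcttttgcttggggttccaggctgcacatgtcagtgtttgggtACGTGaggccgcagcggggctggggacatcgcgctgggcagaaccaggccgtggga
Slc16a3, chr11:120948817-120949116, plus strand: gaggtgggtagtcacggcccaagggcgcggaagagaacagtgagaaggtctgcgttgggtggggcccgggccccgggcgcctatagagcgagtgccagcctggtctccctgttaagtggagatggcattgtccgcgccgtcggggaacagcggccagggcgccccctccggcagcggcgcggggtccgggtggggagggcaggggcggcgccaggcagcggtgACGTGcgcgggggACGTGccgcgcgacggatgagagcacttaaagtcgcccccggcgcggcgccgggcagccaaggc
Egln3, chr12:54203825-54204124, minus strand: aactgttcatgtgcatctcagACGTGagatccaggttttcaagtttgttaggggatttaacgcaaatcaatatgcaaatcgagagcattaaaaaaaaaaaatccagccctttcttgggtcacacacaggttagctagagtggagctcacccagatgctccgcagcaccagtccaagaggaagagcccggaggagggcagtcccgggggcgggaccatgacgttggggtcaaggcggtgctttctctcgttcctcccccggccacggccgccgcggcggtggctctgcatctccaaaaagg
Gys1, chr7:45434589-45434888, plus strand: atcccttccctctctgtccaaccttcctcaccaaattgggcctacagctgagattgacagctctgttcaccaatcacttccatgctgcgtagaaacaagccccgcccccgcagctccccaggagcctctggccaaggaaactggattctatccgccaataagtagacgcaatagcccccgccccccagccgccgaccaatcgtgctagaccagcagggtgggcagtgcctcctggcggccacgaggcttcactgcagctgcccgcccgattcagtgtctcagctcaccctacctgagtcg
Counted from the start, the first base of each match lay at -90 and -54 in Adm, at -241, -155, -152 and -6 in Ankrd37, where the matches at -155 and -152 overlap, at -27 and -14 in Slc16a3, and at -229 in Egln3. Gys1 held no match, which says only that these letters are not in this window. A match is a description and not a binding site. Windows were found for 37 of the 38 members, all but Ndrg1, and 32 of them (86.5%) held a match in any of their windows, against 5965 of 8613 tested genes (69.3%) and 12628 of all 27025 genes with a window (46.7%). Over single windows, the share was 14380 of 32851 (43.8%). By call, a match was held by 24 of 28 members called lower (85.7%) and 2 of 2 called higher. It was also held by 4 of 5 not called and 2 of 2 not tested. The share among members called lower was not above that of all members. ACGTG also lies within CACGTG, the E-box of other factors, which was in 6 of the 37 members (16.2%) and in 1049 of the 8613 tested genes (12.2%).

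Pathway genes outside the set were taken from 7 lists of 147 symbols drawn up from general knowledge of the pathways, with earlier results of these data known. The adjusted p-values printed for them come from this same contrast, for genes named by their fold change. They describe the fit and are no independent support. Of 104 tested, 32 were called higher, 39 lower and 33 neither, with a median log2 fold change of -0.08. Over all genes, 28.2% were called higher and 28.8% lower. The called shares here are close to that in the upward direction and a little over it in the downward direction. Counts for each list below are to be read beside these shares of all genes. On the FPKM scale Tigar, Dlat, Tkt, Pgls, Ppp1r3f, Phka2, Vhl, Cul2, Eloc and Rora were not called, and Egln2 was not called with RLE factors, DESeq2 or the replicate block. Ppp1r3f lost its call in 13 of 18 alternatives, the replicate block and DESeq2 among them.

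In the list of other glycolysis genes, 5 of 14 tested rose and 4 fell. Those that rose were Slc2a8 (log2 fold change 0.90 ± 0.117, edgeR adjusted p = 3.4e-06) and Slc2a6 (0.48 ± 0.0432, adjusted p = 3.4e-08), both glucose transporters of intracellular membranes, together with Pgm2l1, Pgm2 and Adpgk. Those that fell were Eno1b (-0.60 ± 0.0192, adjusted p = 1.5e-14), Pgm1, the phosphoglucomutase that links glycolysis to glycogen (-0.53 ± 0.0376, adjusted p = 1.2e-09), Slc2a3, the high-affinity transporter GLUT3 (-0.51 ± 0.0612, adjusted p = 1.2e-06), and Tigar. On the FPKM scale Slc2a1 held 69.4% ± 1.09 of the glucose transporters counted in the control group and 57.0% ± 0.674 in the tranilast group, and Slc2a6 held 20.4% ± 0.905 and 32.2% ± 0.932 (SD, n = 4).

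In the list of liver isoforms and gluconeogenesis, 10 of 15 genes were too low to test. Among the other 5, Pck2, Khk and Pcx rose, the last 2 from 13.8 ± 0.909 to 18.5 ± 0.885 CPM (adjusted p = 0.0004) and from 16.8 ± 0.352 to 22.2 ± 3.78 CPM (edgeR adjusted p = 0.0023). Khk is fructokinase and Pcx feeds pyruvate into the citric acid cycle. Slc37a4, the transporter of glucose phosphate into the endoplasmic reticulum, fell from 29.0 ± 3.60 to 17.7 ± 1.17 CPM (adjusted p = 1.9e-06).

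Of the 14 tested genes of pyruvate entry into the mitochondrion and lactate transport, 6 rose and 3 fell. Pdha1 and Pdhb, the subunits of pyruvate dehydrogenase, had log2 fold changes of 0.36 ± 0.0365 (edgeR adjusted p = 1.3e-07) and 0.16 ± 0.0406 (adjusted p = 0.0022), and Pdp1, the phosphatase that switches the complex on, had 0.51 ± 0.0897 (adjusted p = 9.8e-05). Its regulator Pdpr rose as well. The kinase Pdk2 rose from 1.51 ± 0.393 to 3.78 ± 0.789 CPM (adjusted p = 0.00015), still far below Pdk1, and Pdk3 fell (-0.32 ± 0.0631, adjusted p = 0.0003). Bsg, the chaperone that brings MCT1 and MCT4 to the membrane, fell (-0.33 ± 0.0324, adjusted p = 8e-08), as did Dlat, another subunit of the complex.

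Of the 9 pentose phosphate genes, all tested, 3 rose (Shpk, H6pd and Pgd) and 2 fell (Tkt and Pgls). Pgd, which makes NADPH, went from 552 ± 10.2 to 603 ± 13.2 CPM (adjusted p = 0.00033), and transketolase (Tkt) from 505 ± 6.95 to 439.9 ± 5.34 CPM (edgeR adjusted p = 1.7e-06). None of these log2 fold changes but that of Shpk exceeded 0.5 in size.

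Of 14 other glycogen genes tested, 5 rose and 5 fell. Gyg, the primer on which glycogen is built, had a log2 fold change of 0.50 ± 0.0517 (edgeR adjusted p = 1.6e-07). Pygb, the brain glycogen phosphorylase, had 0.40 ± 0.0468 (adjusted p = 9.2e-07) and made up 98.1% ± 0.352 of the phosphorylase FPKM in the control group and 99.4% ± 0.151 in the tranilast group (SD, n = 4). Ugp2, which supplies the glucose donor for glycogen synthesis, fell (-0.38 ± 0.046, adjusted p = 1.4e-06). Phkb, Gaa and Ppp1r3e rose, and Ppp1r3f, Phkg2, Gsk3a and Phka2 fell, the call of Ppp1r3f being lost in most alternatives and the sign of Phka2 turning on the FPKM scale.

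Of 14 HIF pathway components tested, 2 rose and 6 fell. Arnt, the partner of HIF-1 alpha, had a log2 fold change of 0.18 ± 0.0384 (edgeR adjusted p = 0.00079), and Egln2 was at the threshold (0.17 ± 0.073, adjusted p = 0.0498). The coactivator Ep300 fell (-0.36 ± 0.032, adjusted p = 2.4e-08), as did the chaperone Hsp90ab1 (-0.55 ± 0.0177, adjusted p = 1.5e-14). Of the von Hippel-Lindau ligase, which marks hydroxylated HIF-1 alpha for destruction, the subunits Vhl, Cul2 and Eloc fell, a call lost on the FPKM scale, and Elob (-0.12 ± 0.0529) and Rbx1 (-0.06 ± 0.0514) were not called. Epas1, the alpha subunit of HIF-2, had 6 to 12 counts per library and was not tested.

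Of 34 other HIF-1 targets tested, 18 fell and 8 rose, against 28.8% and 28.2% of all genes, with a median log2 fold change of -0.25. Among those that fell most were Ak4, a mitochondrial adenylate kinase (261 ± 5.80 to 131 ± 2.70 CPM, edgeR adjusted p = 1.6e-14), Bnip3, which drives mitophagy (384 ± 18.8 to 195 ± 9.14 CPM, adjusted p = 3.6e-13), Higd1a and Ppfia4. The 5 that rose most were Rab20, Rora, Ddit4, an inhibitor of mTORC1 (11.2 ± 2.16 to 21.4 ± 0.969 CPM, adjusted p = 1.3e-06), Hmox1, the heme oxygenase (131 ± 5.73 to 213 ± 3.42 CPM, adjusted p = 1.1e-11), and Mt1, a metallothionein. Several of these genes also answer to other stress pathways.

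**Figure D4:**
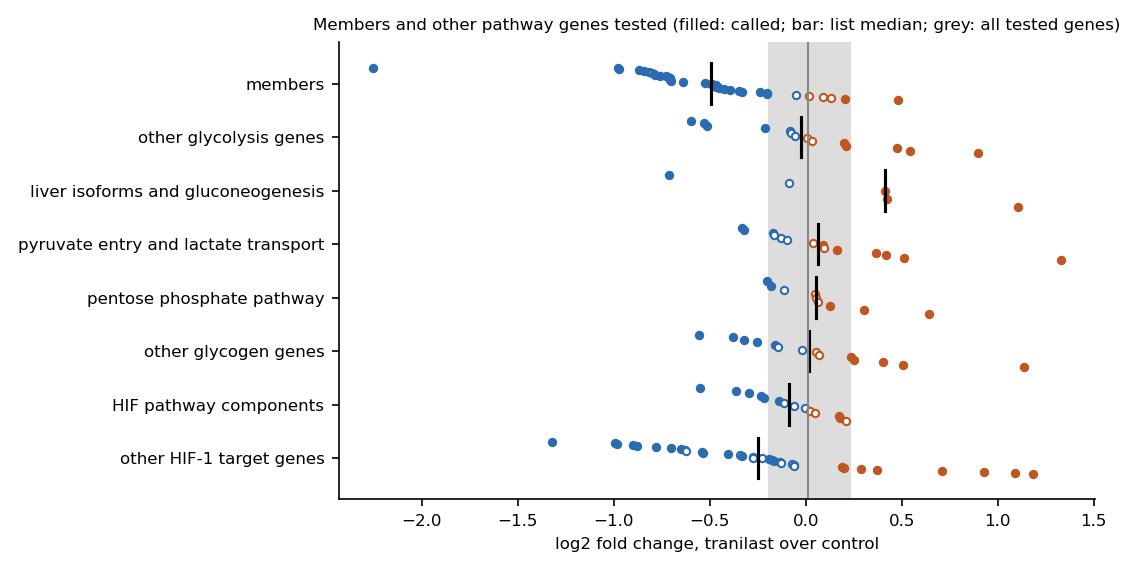
Log2 fold change of each tested gene of the set and of the 7 other lists (filled, called; open, not called; black bar, list median; grey band and line, quartiles and median of all tested genes). The medians of the set (-0.49) and of the other HIF-1 targets (-0.25) lie left of the band, those of the other lists lie within it or to its right.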

How the data were processed

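RNA-seq of 8 mouse libraries, 4 control and 4 tranilast, was analysed. For every gene, the authors deposited an estimated count, often not whole where reads are shared, and an FPKM value scaled by them for transcript length and depth. Per the methods, libraries were poly-A enriched, paired-end and run on a HiSeq X-ten, whereas the labels name a NovaSeq instrument. Which aligner, counter and genome build were used is not given in the sources used here. The KEGG and GO columns of the table were not used.

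Estimated counts were rounded, filtered with filterByExpr by group, scaled by TMM and tested in edgeR 4.0.16 (quasi-likelihood, Benjamini-Hochberg over 10770 genes, adjusted p under 0.05), with R 4.3.3, limma 3.58.1, DESeq2 1.42.0, Python 3.11.15, pandas 2.3.3, numpy 2.4.6 and scipy 1.17.1. The code was tested on simulated data. Totals of 12053036 to 15618789 counts set the precision. Coordinates (1-based, GRCm38) were taken from GENCODE M21 for 21973 of 22063 identifiers. Promoter windows are those of RefSeq on GRCm38.p6.

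The members and the lists were chosen with earlier results of these data known. Members were given library by library when called with a log2 fold change of 0.5 or more in size or when highest in mean FPKM of their role. Of each other list, up to 5 called genes per direction were named by fold change. Alternatives were RLE, upper-quartile and library-size scaling, omission of the filter, a minimum of 10 counts in all libraries, DESeq2, limma-voom, limma trend on log2 of FPKM plus 1 or 0.1, the replicate number as a block, and each library left out in turn. Some genes of the lists are not reported here by name. Marker lists for 11 cell types were counted. Every pair of replicates of a group differed beyond sampling noise (chi-square per degree of freedom 2.52 to 5.34).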

Additional observations from a re-analysis of the deposited data

Results flagged for a closer look

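Within each group of 4 libraries, the highest or lowest value was set against the range of the group (Dixon's criterion, on log2 CPM with 0.1 added). This was done for 180 combinations of gene and group and flagged 7, where chance flags about 1 in 20. No explanation was tested for any of them.

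Among the members, Slc2a1 was highest in control replicate 2, at 429 CPM against 408 to 409 CPM in the other control libraries. Hk2 was lowest in control replicate 4, at 289 CPM against 302 CPM in the others. Pgk1 was highest in control replicate 2, at 1759 CPM against 1579 to 1593 CPM. Ndrg1 was highest in control replicate 3, at 194 CPM against 168 to 170.3 CPM, and lowest in tranilast replicate 1, at 129 CPM against 134 to 135 CPM. In each case the library stayed on its own side of the other group. Among the other pathway genes, Khk was highest in tranilast replicate 1, at 19.8 CPM against 18.0 to 18.2 CPM, and Slc37a4 in the same library, at 19.5 CPM against 16.9 to 17.3 CPM.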

How the results depend on the processing

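Of the 37 members tested, 30 kept direction and call under every alternative in which they were tested, and so did 42 of the 53 other pathway genes named. There were 18 alternatives, or 17 for the second Aldoa identifier, P4ha2, Ppp1r3e and Rora. Hk3 was called higher under 4 and Eno2 under 3 of them. The 16 members called with a log2 fold change of 0.5 or more in size were called lower in every alternative. They were picked by that size in the main fit of the same libraries, so this was largely fixed beforehand and supports nothing. The members called lower numbered 29 throughout, apart from 28 with library size alone and 27 on the FPKM scale. The members called higher numbered 3 with upper-quartile factors, 4 with library size alone, 4 with FPKM plus 1, 4 with FPKM plus 0.1, 1 without the filter, 1 with DESeq2 and 1 to 2 when a library was left out. Pfkm was the one lost, without control replicate 2, 3 or 4 or tranilast replicate 3 or 4. Of all genes, 4613 were called higher with library size alone, and 1893 were called lower with library size alone, 1660 with FPKM plus 1 and 1663 with FPKM plus 0.1. Of the other pathway genes, 24 were called lower with FPKM plus 1 and 24 with FPKM plus 0.1.

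The log2 fold change of Aldoc turned to 0.018 with upper-quartile factors, 0.0671 with library size, 0.0686 with FPKM plus 1 and 0.0700 with FPKM plus 0.1. That of Pfkfb4 ranged from -0.0454 to 0.0766 when a library was left out, and was below 0 without control replicate 2 or 3 or tranilast replicate 3. That of Phka2 turned to 0.0211 with FPKM plus 1 and 0.022 with FPKM plus 0.1. Neither Aldoc nor Pfkfb4 was called in any alternative. The causes were not tested.

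Libraries with the same replicate number did not deviate together (r of -0.0541 to 0.132, and 1 of 4 control libraries correlated best with its own number). With the replicate number as a block, which ended the calls of Ppp1r3f and Egln2 among the genes named, 2957 genes were called higher and 3052 lower, with 2 and 29 members and 31 and 38 other pathway genes.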
